A study of Homo sapiens with 5 samples.

Results

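The aminoacyl-tRNA synthetase genes were examined in start site calls made from nascent RNA of HUDEP-2 cells, a human line of immortalised erythroid progenitors. The group was fixed by gene name and holds 35 of the 19974 protein-coding genes on chromosomes 1 to 22 and X. Of these, 19 encode cytosolic enzymes (names ending in 1, with FARSA and FARSB) and 16 encode mitochondrial enzymes (names ending in 2). The rule that picks them uses names and no measured value.

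An aminoacyl-tRNA synthetase joins an amino acid to the tRNAs that carry its anticodons, and so sets the genetic code during translation. Most amino acids have separate enzymes for the cytosol and the mitochondrion, each encoded in the nucleus, and several cytosolic enzymes sit in a multi-synthetase complex held together by scaffold proteins. Red cell precursors make haemoglobin at a high rate, and many genes for cytosolic synthetases are known targets of ATF4, the transcription factor that answers a shortage of amino acids or of haem.

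PRO-seq (precision run-on sequencing) captures RNA that engaged polymerases extend by labelled nucleotides in isolated nuclei. Of the series' 5 HUDEP-2 libraries, 2 are from wild-type cells. The other 3 each come from 1 clone grown from a single cell after editing of the BCL11A enhancer with sg1617: 1 clone has 1 bp inserted, another lacks 13 bp and the last lacks 15 bp. The 2 deposited lists of calls, 1 per strand, have no column per library, and name 1 alignment that matches no library title, so edited and wild-type cells could not be compared, no spread between libraries can be given, and no test was made. The lists hold 14124 forward and 14159 reverse calls. The score is 0 in each call, so neither the strength of a start site nor the depth behind it is known. To describe the labelled cell type, marker genes were looked up. Of the erythroid markers, 10 of 10, among them HBB, GATA1 and ALAS2, had a promoter call as defined next. Of the markers of lymphoid, myeloid, megakaryocytic and hepatic cells 0 of 15 did, which allows a share of up to 20.4% (Wilson 95% upper limit, counting error only). The marker lists were chosen with earlier results of these data known, so this is not an independent check.

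A gene was counted as called when a call on its own strand lay within 500 bp of a start annotated by RefSeq. Starts and strands came from the RefSeq promoter table (GRCh38.p14), which matched 30 of the 35 members. For LARS1, VARS1, YARS1, AARS2 and VARS2 a forward call at the left end of the gene or a reverse call at its right end was accepted instead, and their strand was read from that call. Nearly every synthetase gene was called: 34 of 35 (97.1%, Wilson 95% interval 85.5 to 99.5%, over genes), where 44.8% of all protein-coding genes were. All 19 cytosolic genes had a promoter call (interval 83.2 to 100%), and 15 of the 16 mitochondrial genes did (93.8%, interval 71.7 to 98.9%). FARS2, the mitochondrial phenylalanine enzyme, was the gene without one. The share was 6.25 percentage points higher among cytosolic genes, with an interval of the difference from -11.3 to 28.3 points, so no difference between the classes could be resolved with these numbers of genes. For comparison, 2 other sets were taken by gene symbol. Genes for mitochondrial ribosomal proteins were called in 76 of 77 cases (98.7%, interval 93 to 99.8%). Genes with the EIF symbol of translation initiation factors were called in 47 of 55 (85.5%, interval 73.8 to 92.4%).

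**Figure D1:**
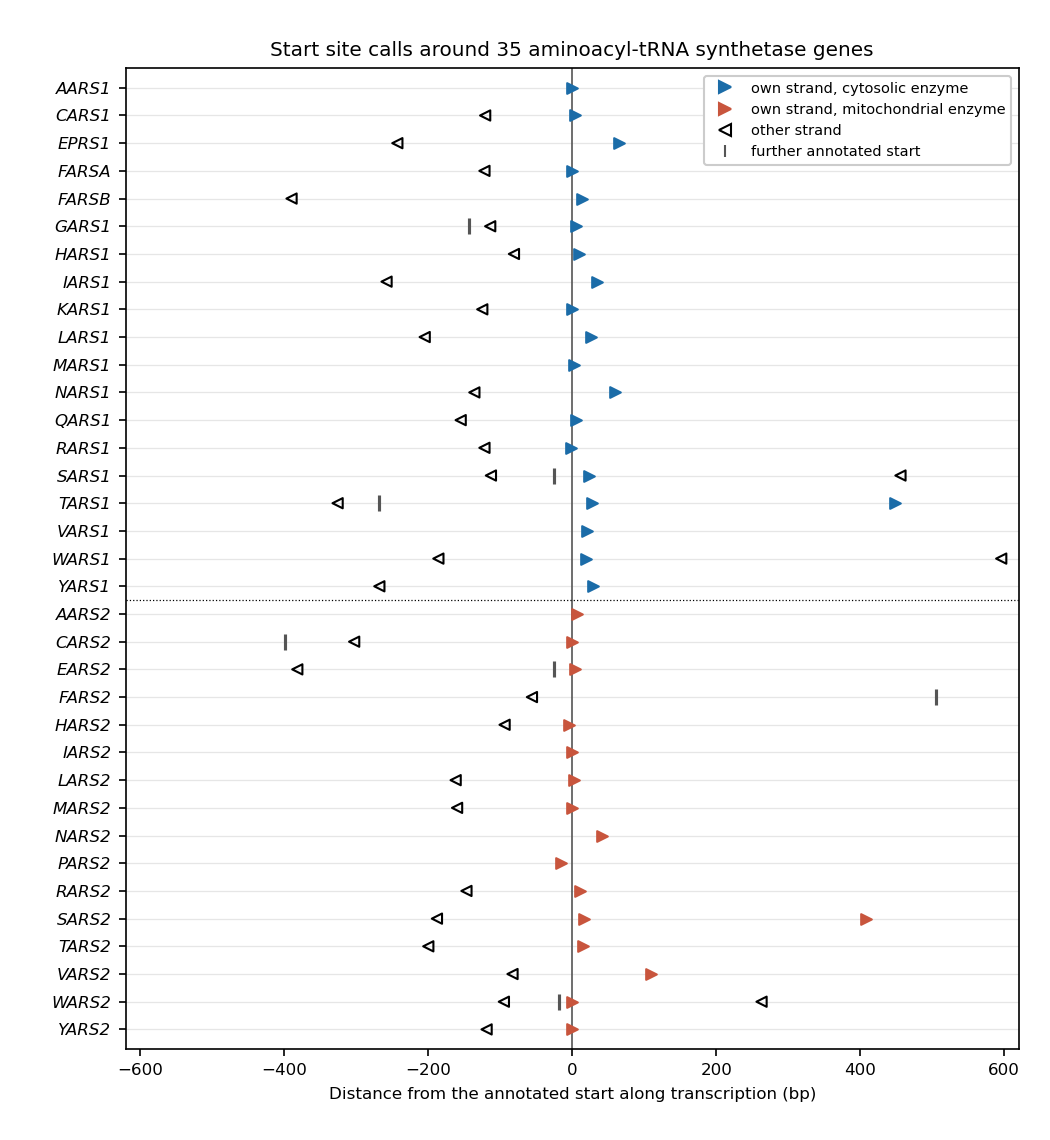
Calls on the strand of the gene (filled) and on the other strand (open) around each of the 35 synthetase genes, by distance in bp from the annotated start nearest the promoter call; for FARS2, which has no promoter call, the zero is its first annotated start. Promoter calls sit at the line, from -16 to 109 bp, and other-strand calls lie mostly to its left; calls beyond the plotted range are not drawn.

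Among the enzymes of the multi-synthetase complex, 7 are in the group and 7 had a promoter call. The offset is the distance from the annotated start to the call along transcription, negative when the call is upstream. KARS1, the lysine enzyme, which also serves mitochondria, was called at 0 bp on chromosome 16 (position 75647665). MARS1, the methionine enzyme, was called at 2 bp, RARS1, the arginine enzyme, at -2 bp and QARS1, the glutamine enzyme, at 5 bp. These 4 calls lay at or next to the annotated base. LARS1, the leucine enzyme, was called at 26 bp and IARS1, the isoleucine enzyme, at 35 bp. EPRS1, which charges both glutamate and proline tRNAs, had the farthest call of the cytosolic genes, at 65 bp (position 220046440 on chromosome 1). The offset of LARS1, like those of VARS1 and YARS1, was taken from the outer end of the gene.

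The other 12 cytosolic genes were called between -1 and 59 bp. AARS1, for alanine, was called at 0 bp, FARSA, the alpha subunit of the phenylalanine enzyme, at -1 bp, and FARSB, its beta subunit, at 13 bp. CARS1, for cysteine, had its call at 4 bp, GARS1, for glycine, which also serves mitochondria, at 5 bp, and HARS1, for histidine, at 9 bp. SARS1, TARS1, VARS1, WARS1 and YARS1, the serine, threonine, valine, tryptophan and tyrosine enzymes, were called between 19 and 29 bp downstream. NARS1, the asparagine enzyme, was called at 59 bp. Of the 19 cytosolic offsets, 15 were downstream of the annotated base, 2 upstream and 2 on it. Among the mitochondrial genes 8 were downstream, 5 upstream and 2 on it. Over all called protein-coding genes 52% were downstream, 36% upstream and 12% on it, and the difference was not tested. Offsets of -1 bp were the most frequent, at 1722 of 8948 genes, with 1075 at 0 bp. FARSA, CARS2, MARS2 and YARS2 were called at -1 bp. These shares therefore depend on a placement of 1 base, which is uncertain as described below.

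The median offset was 3 bp among mitochondrial enzyme genes (quartiles -1 and 13 bp, n = 15 genes) and 13 bp among cytosolic ones (quartiles 3 and 26.5 bp, n = 19 genes). The ranges, -16 to 109 bp and -2 to 65 bp, overlap, the difference was not tested, and over all 8948 called protein-coding genes the median was 1 bp (quartiles -1 and 19 bp). IARS2 and WARS2 were called at 0 bp, CARS2, MARS2 and YARS2 at -1 bp, and LARS2 at 3 bp. PARS2, the mitochondrial proline enzyme, had the farthest upstream call, at -16 bp, and VARS2, the valine enzyme, the farthest downstream, at 109 bp. The offsets of AARS2, at 7 bp, and of VARS2 were taken from the outer end of the gene. So were those of LARS1, VARS1 and YARS1, at 26, 21 and 29 bp. Each of these 5 offsets lies above the median of its class, and class medians without them were not computed. Within 50 bp of a start lay 31 of the 34 calls, or 91.2%, and 86.4% of those of all called genes.

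**Figure D2:**
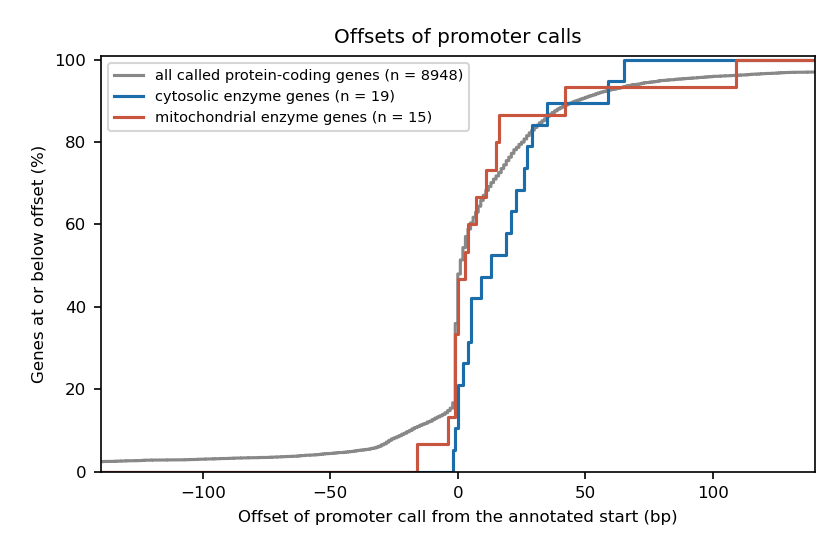
Cumulative share of genes (%) by offset of the promoter call from the annotated start (bp) for 19 cytosolic and 15 mitochondrial enzyme genes and for 8948 called protein-coding genes. The mitochondrial curve runs near that of all genes, and the cytosolic curve is shifted to the right, with a median of 13 bp. That median includes LARS1, VARS1 and YARS1, whose larger offsets were taken from the outer end of the gene.

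FARS2 spans 521650 bp on chromosome 6 (5249934 to 5771583), the longest of the 35 genes, and held no call on its own strand. Its first listed start, at 5261007, lies 11073 bp inside the outer end of the gene, and no call on the gene's strand was found at either, nor at the second listed start at 5261513. The gene's 1 call was on the other strand, at 5260951, which is -56 bp from the first listed start. That base is -1 bp from the start of LYRM4, which encodes a protein of iron-sulphur cluster assembly and is transcribed the other way, its start lying 57 bp from that of FARS2. The sequence between the starts is shown because it holds a called base for LYRM4 and none for FARS2. It is taken, like the other sequences printed here, from the RefSeq promoter windows (GRCh38.p14), and is given on the strand of FARS2, chr6:5260921-5261036, with the called base in capitals (the call itself is on the opposite strand), and it runs from 30 bases into LYRM4 to 30 bases into FARS2.
FARS2 and LYRM4: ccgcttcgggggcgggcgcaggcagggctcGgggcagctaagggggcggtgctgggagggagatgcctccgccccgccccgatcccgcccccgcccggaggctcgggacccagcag

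The genes for the cytosolic and the mitochondrial histidine enzymes are neighbours on chromosome 5 and start back to back, 85 bp apart. HARS1 (140673905 to 140691370, reverse strand) was called at 140691361, and HARS2 (140691455 to 140699305, forward strand) at 140691451. The calls were 90 bp apart, each the divergent partner of the other, and there was no other call inside or within 500 bp of HARS1, nor of HARS2. The shared promoter is printed on the strand of HARS2, chr5:140691341-140691484, from 30 bases inside HARS1 to 30 bases inside HARS2. The first capital is the base called for HARS1, read from the opposite strand, and the second is the base called for HARS2.
HARS1 and HARS2: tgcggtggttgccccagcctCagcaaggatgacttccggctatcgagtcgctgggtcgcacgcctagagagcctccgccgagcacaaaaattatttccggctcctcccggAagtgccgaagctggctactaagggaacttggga

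In all, 12 of the 35 genes had an oppositely oriented start listed within 1000 bp, 6 of each class, against 25.5% of 16882 protein-coding genes of known strand. In 11 of the 12 the genes started head to head, 57 to 352 bp apart. Besides the histidine pair and LYRM4, protein-coding neighbours were TERF2IP, a telomere-binding protein, at KARS1, WDR25 at WARS1, S100PBP at YARS1, UBFD1 at EARS2, ORC3, a subunit of the origin recognition complex, at RARS2, and MRPS12, a protein of the mitochondrial ribosome, at SARS2. Long non-coding RNAs were LOC124907985 at FARSB, TARS1-DT at TARS1 and WARS2-AS1 at WARS2. WARS2-AS1 starts inside WARS2, 257 bp downstream of the start used, and points back towards it. Each of the 12 neighbouring starts had a promoter call. ORC3 was called at -1 bp, MRPS12 at -3 bp, UBFD1 at 5 bp and TERF2IP at 17 bp. FARS2 was thus the one start among these pairs with no call on its side.

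**Figure D3:**
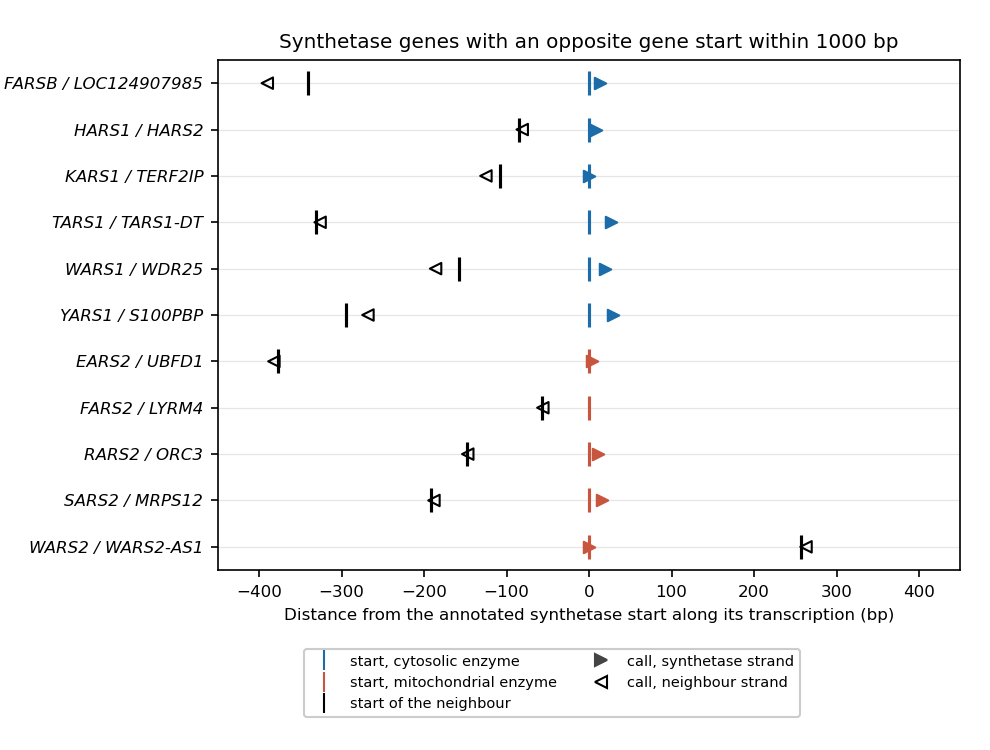
Annotated starts (bars) and calls (triangles) at 11 pairs of a synthetase gene and an oppositely oriented neighbour, in bp from the synthetase start along its transcription; HARS1 and HARS2 share 1 row, and for a gene with several starts the one nearest its call is drawn. In each row a call stands on the side of the neighbour, and in all rows but that of FARS2 a call stands on the side of the synthetase.

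A divergent call is a call on the other strand within 1000 bp upstream of the promoter call. It was found for 27 of the 34 called genes (79.4%, interval 63.2 to 89.7%), where 66.6% of called protein-coding genes had one. By class it was 16 of 19 cytosolic and 11 of 15 mitochondrial genes, a difference of 10.9 percentage points with an interval from -16 to 38.2. In 10 of the 27 the divergent call was the promoter call of the neighbouring gene. The other 17 were not a neighbour's promoter call: 16 had no oppositely oriented start listed within 1000 bp, and at WARS2 the listed opposite start lay downstream. Among the 23 called members with no opposite start listed within 1000 bp, 16 had a divergent call, against 60.1% of such genes overall. MARS1 is among the 23, though the right end of ARHGAP9, a gene without a listed start, lies 756 bp downstream of its start.

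Distances between promoter call and divergent call ran from 90 to 403 bp. The median was 177.5 bp for the cytosolic and 165 bp for the mitochondrial genes, and 177 bp for all called genes (quartiles 118 and 279 bp). GARS1, RARS1, FARSA, KARS1 and CARS1 were spaced within 119 to 125 bp. The widest spacings were 403 bp at FARSB, 386 bp at EARS2 and 353 bp at TARS1, and at each of these 3 genes the divergent call belonged to an annotated neighbour.

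Without a divergent call were 7 called genes: AARS1, MARS1 and VARS1 of the cytosolic class and AARS2, IARS2, NARS2 and PARS2 of the mitochondrial class. AARS1 and AARS2, the cytosolic and mitochondrial alanine enzymes, were thus both without one, with promoter calls at 0 and 7 bp. At AARS1 the left end of DDX19B, a gene for an RNA helicase, lies at -261 bp, and no forward call was found within 500 bp of AARS1. MARS1, IARS2 (chromosome 1, called at 220094132), NARS2, PARS2 and AARS2 each held 1 call in all, counting both strands over the gene body and 500 bp at its ends.

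**Figure D4:**
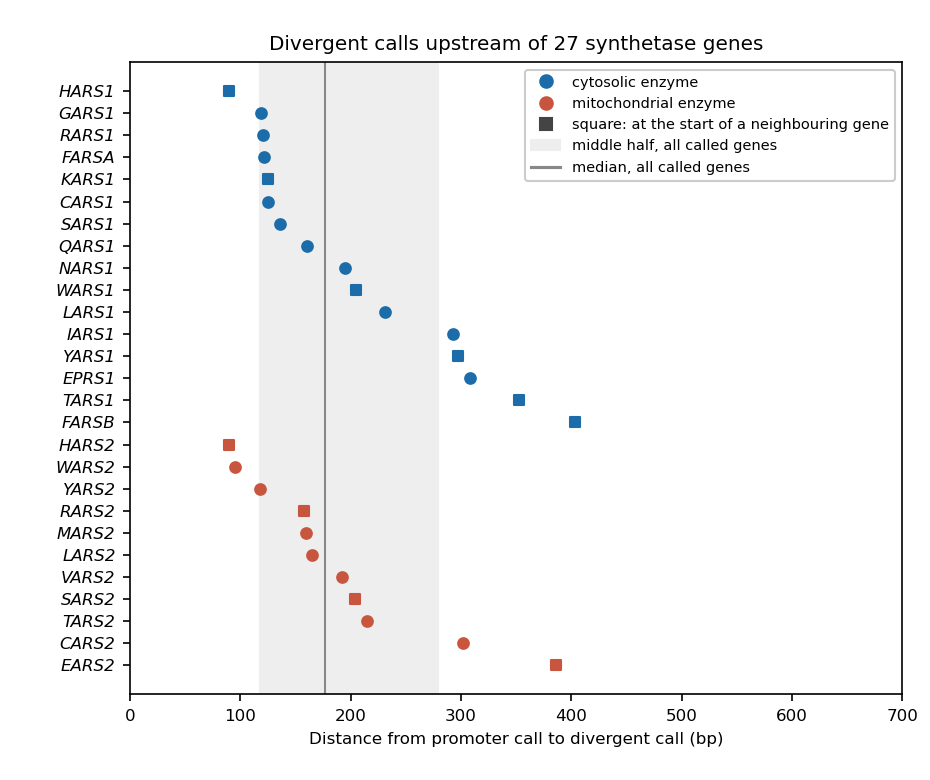
Distance in bp from the promoter call to the divergent call for the 27 genes that have one, ordered within each class; squares mark divergent calls at the start of a neighbouring gene, the shaded band the quartiles (118 and 279 bp) and the line the median (177 bp) of all called protein-coding genes. Most points lie inside the band, with HARS1 and HARS2 lowest at 90 bp and FARSB highest at 403 bp.

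Most of the genes had a single own-strand call. The smallest gap between calls of a strand was 206 bp, so starts closer than that are not told apart by these lists. Of the 34 called members, 28 held exactly 1 own-strand call over the gene body and 500 bp at its ends, and 6 held 2 or more, where 29.3% of called protein-coding genes did. For AARS1 and VARS1 the second call lay past the far end of the gene and near the start of the next gene, EXOSC6 and VWA7. TARS1 and SARS2 each had a second call a short way into the gene, 422 and 392 bp after the first.

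WARS1 and CARS2 had own-strand calls in more than 1 separate region. WARS1, the tryptophan enzyme, which is also induced by interferon, has listed starts 980 bp apart on chromosome 14. One call lay 19 bp downstream of the first start, at 100376308, and another at 100375473, which is -126 bp from the second. Each had a divergent call of its own, at 205 and 258 bp, and a further own-strand call lay at 100371374. CARS2, the mitochondrial cysteine enzyme, was called at -1 bp of a start that lies 7406 bp inside the outer end of the gene on chromosome 13, at 110706117. Its upstream listed start, at 110706515, lies 398 bp from that call. Its other own-strand calls, at 110712415 and 110712884, lay nearer that outer end. Forward calls at the start of ING1, a gene for a chromatin protein, lie in the same stretch. Both CARS2-strand calls lie within 1000 bp upstream of the forward call at 110713261. They thus also meet the distance used for divergent calls, here of ING1, and to which gene they belong was not tested.

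At GARS1 and TARS1, as at SARS1, EARS2, WARS2 and CARS2, the call lay nearest the downstream of 2 listed starts. Any call past both starts is nearest the downstream one. The GARS1 starts lie 143 bp apart, and its call at 30594883 was 5 bp past the second and 148 bp past the first. Since no calls of a strand lie closer than 206 bp, its single call does not show that the first start is unused. The TARS1 starts lie 269 bp apart, and its call at 33440992 was 27 bp past the second and 296 bp past the first. The upstream start of CARS1, at 3057423, was called, whereas its second listed start, 16439 bp further into the gene, had no call within 500 bp.

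Apart from the members' own promoter and divergent calls, with the divergent call of the second WARS1 start counted among the latter, 10 calls lay inside 7 of the 35 genes. Of these, 3 were at the start of another gene. The remaining 7 included a forward call 815 bp into EPRS1 and reverse calls 456 and 4757 bp into SARS1, all on the strand opposite to the gene. The highest number of own-strand calls in any of the 35 genes was 3. The median over the 10 erythroid markers was also 3, and TFRC, the gene for the transferrin receptor, held the most of these markers, 39.

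Because synthetase genes are known targets of ATF4, promoter windows were searched for the letters of its element, CARE (the C/EBP-ATF response element), as TGATGNAA on either strand. The window held 250 bases before the annotated start and 50 from it onward, and each listed start of a gene was searched. The letters were found in 7 of 16 cytosolic genes with a listed start (43.8%, interval 23.1 to 66.8%) and in 1 of 14 mitochondrial genes (7.14%, interval 1.27 to 31.5%), where 3.6% of 15812 protein-coding genes and 2.34% of called ones held them. Among genes for mitochondrial ribosomal proteins 1 of 69 did, and among genes with an EIF symbol 1 of 46. No set was tested for enrichment. A match is a description of letters and not of binding, and a gene without a match may carry the element in other letters or elsewhere.

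In 6 of the 7 cytosolic promoters the letters were TGATGCAA, on 1 strand or the other, a form held by 0.904% of protein-coding genes. GARS1 had TGATGAAA, and the mitochondrial gene YARS2, for tyrosine, had TGATGGAA. The promoters are printed because they show where the letters stand against the called base. Each is given 5′ to 3′ on the strand of its gene, with the CARE letters in capitals and, where it falls in the printed run, the called base in capitals as well. GARS1 and TARS1, whose letters lie past the first of their listed starts, are shown for 30 bases from the element, and the others end at most 30 bases into the gene. The runs are MARS1 chr12:57488010-57488097 forward, CARS1 chr11:3057394-3057479 reverse, TARS1 chr5:33440967-33440996 forward, GARS1 chr7:30594845-30594874 forward, IARS1 chr9:92293668-92293740 reverse, NARS1 chr18:57621807-57621852 reverse, AARS1 chr16:70289656-70289723 reverse and YARS2 chr12:32756057-32756124 reverse.
MARS1: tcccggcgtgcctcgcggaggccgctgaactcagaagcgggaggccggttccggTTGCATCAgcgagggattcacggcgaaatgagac
CARS1: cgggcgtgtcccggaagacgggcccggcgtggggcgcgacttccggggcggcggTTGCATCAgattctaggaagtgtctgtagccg
TARS1: TTGCATCAgctggtccagccgaggcCaagt
GARS1: TTTCATCAtgctccgagccgggcggcgcgc
IARS1: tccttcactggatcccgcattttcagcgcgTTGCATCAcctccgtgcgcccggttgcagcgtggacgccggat
NARS1: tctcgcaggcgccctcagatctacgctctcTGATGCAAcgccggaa
AARS1: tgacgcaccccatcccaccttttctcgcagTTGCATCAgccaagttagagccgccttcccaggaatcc
YARS2: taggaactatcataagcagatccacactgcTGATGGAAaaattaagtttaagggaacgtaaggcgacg

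The element stood close to the called base in 6 of the 7 cytosolic genes. At MARS1 and CARS1 the called base lay inside it: counted from the call, the letters ran from base -6 to base 1 in both, so the call fell on the C of the closing CA. The first base of the element was at -25 from the call at TARS1, -38 at GARS1, -45 at NARS1 and -48 at IARS1. It was at -187 at AARS1 and at -196 at YARS2. Over all protein-coding genes, 93 called genes held the letters in the window of the called start. They began 0 to 50 bases before the called base in 23 of these, the 6 synthetase genes included, and covered the called base in 9, including MARS1 and CARS1.

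The other motifs are given with their shares among called and among all protein-coding genes. The ETS letters CCGGAAG were found in 9 of 16 cytosolic and 7 of 14 mitochondrial promoters (56.2% and 50%), against 27.2% of called and 16.5% of all protein-coding genes. The shared HARS1 and HARS2 promoter holds them on both strands and counts in both classes. Within 100 bases of a start 8 cytosolic and 3 mitochondrial genes held them (50% and 21.4%), against 21.2% of called and 12.4% of all genes. Genes for mitochondrial ribosomal proteins held them in 30 of 69 windows (43.5%), and genes with an EIF symbol in 13 of 46 (28.3%). The E-box CACGTG stood in 3 mitochondrial promoters, those of MARS2, EARS2 and, at its upstream listed start, CARS2, and in that of IARS1, against 14% of called and 10.9% of all genes. The NRF1 core GCATGCGC was found, of the 30 genes searched, at MARS2 and YARS2, against 8.02% of called and 4.89% of all genes. The TBP box TATAAA was found at GARS1, at -162 bp from its upstream listed start, and at WARS1, on the strand opposite to the gene, at -124 bp from its second listed start, against 7.73% of called and 12.4% of all genes. It was in 0 of the 30 genes within 100 bases of a start, against 3.84% of called and 7.41% of all genes. The YY1 letters ATGGCGG were held by 4 cytosolic and 3 mitochondrial promoters, against 15.1% of called and 9.15% of all genes. CCAAT was held by 7 and 9, against 45% of called and 42.1% of all genes. GGGCGG was held by 12 and 11, against 79.6% of called and 64.2% of all genes. Each of the 8 motifs was counted on its own, on both strands, and overlaps between motifs were not removed.

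**Figure D5:**
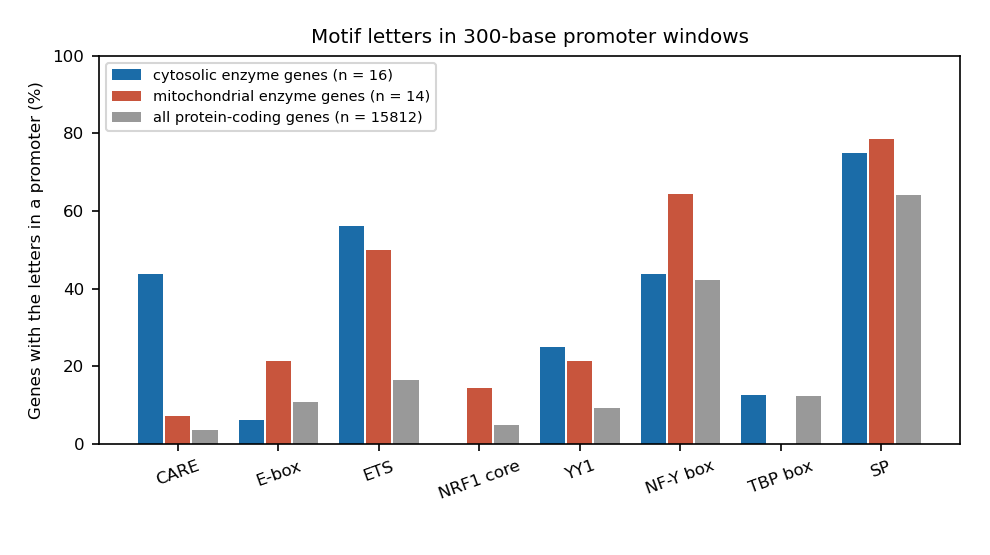
Share of genes (%) with each set of motif letters on either strand of a 300-base promoter window, for 16 cytosolic enzyme genes, 14 mitochondrial enzyme genes and 15812 protein-coding genes; the NF-Y box is CCAAT and the TBP box TATAAA. CARE differs most between the classes, at 43.8% of cytosolic, 7.14% of mitochondrial and 3.6% of all genes.

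The base under the call could be read for 26 members whose call fell well inside the window. In 11 of them, 5 of 14 cytosolic and 6 of 12 mitochondrial, the call stood on the C of a CA pair, and in 0 was the call the A of such a pair. The same held over 6682 called protein-coding genes: 34.0% of calls stood on the C of CA, and 1.38% on its A. On the forward strand the former share was 33.2% and on the reverse strand 34.8%. RNA polymerase II commonly starts at the A of a CA pair. Offsets therefore carry an uncertainty of 1 base, and the cause of the excess on C was not tested.

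Of 20 genes that work with the synthetases, 19 were called (95%, interval 76.4 to 99.1%), against the 44.8% of all protein-coding genes. The scaffold genes of the multi-synthetase complex were all called: AIMP1 at 0 bp, AIMP2 at 2 bp and EEF1E1 at 20 bp, with divergent calls at 349, 224 and 243 bp. QRSL1, GATB and GATC, the amidotransferase subunits that make glutaminyl-tRNA in mitochondria, where the group has no glutamine enzyme, were called at 3, 22 and 0 bp. MTFMT, which formylates the mitochondrial initiator tRNA, was called at -1 bp, and SEPSECS and PSTK, which make selenocysteine on a tRNA first charged with serine, at 188 and 3 bp.

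Genes for proofreading of charged tRNAs were called as well: AARSD1 at -1 bp, DTD1 at -65 bp, DTD2 at 83 bp and ANKRD16 at 27 bp. EEF1A1 and TUFM, which carry charged tRNAs to the cytosolic and the mitochondrial ribosome, were called at 1 and 50 bp. EEF1A1 held 9 own-strand calls, more than any synthetase gene. XPOT, the exporter of tRNAs from the nucleus, TRNT1, which adds the CCA end, ELAC2, which trims tRNA precursors, and TRMU, which modifies mitochondrial tRNAs, were called between -9 and 73 bp. TRMT5, a tRNA methyltransferase, was the gene without a promoter call, and it held 1 call on each strand.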

How the data were processed

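The calls were deposited as positions with a score, and the authors' score column was 0 throughout. Per the file headers they were made with TSScall on 1 sorted, de-duplicated HUDEP-2 alignment, which is not the title of a sample. Per the submitters' processing notes the build was hg38, and the tools named are deepTools 3.5.4, SAMtools 1.17, Picard and BWA 0.7.16a. TSScall's version is not given in the sources used here, nor its read minimum, and the depth is unknown. The end coordinate of each 1-base interval was taken as the position.

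Genes came from RefSeq (GRCh38.p14). The promoter table listed starts and strands for 15812 of 19974 protein-coding genes; the others were called at either outer end. The share of all protein-coding genes with an opposite start left out chromosome 8 and genes with neither a listed start nor a call. Opposite starts were sought among listed starts only. All starts listed for a gene were allowed, and the call nearest to one of them was used. Shares carry Wilson 95% intervals, and differences of shares Newcombe's; these cover counting over genes only. Named genes were all members and partner genes, with genes sharing a promoter; printed promoters are those of the results on FARS2, the histidine pair and CARE, without long UTR stretches. Mitochondrial ribosomal and initiation factor genes were taken by symbol prefix. Any gene whose symbol begins with EIF and a digit was counted in the latter set, whether or not it encodes an initiation factor. Members, lists and motifs were chosen with earlier results of these data known. In a check on simulated calls at 400 isolated genes with 1 listed start, the planted outcome was recovered in 400. For some of them that outcome was the absence of a promoter call. Shared promoters and genes with several or no listed starts were not covered. Scripts ran in Python 3.11.15 with scipy 1.17.1, pandas 2.3.3 and numpy 2.4.6, and figures were drawn with matplotlib 3.10.9.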

Additional observations from a re-analysis of the deposited data

How the results depend on the processing

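The share of called members lay between 94.3% and 97.1% under the 6 alternatives run: VARS2 lost its call with a window of 100 bp, and CARS2 when only outer gene ends were used. With outer ends of the listed strand, the offset was 148 bp at GARS1 and 296 bp at TARS1, and the median was 19 bp for cytosolic and 9 bp for mitochondrial genes. The share of all protein-coding genes moved from 44.8% to 41.6% (100 bp), 46% (1000 bp), 42.2% (either outer end), 50% (any own-strand call), 41.6% (outer end of the listed strand) and 47.9% (genes with a listed start). Divergent calls of all called genes moved from 66.6% to 63.6% within 500 bp and to 60.1% without genes with an opposite start, and opposite starts from 25.5% to 22.3% within 500 bp. Within 100 bases of the start, CARE was held by 6 of 16 cytosolic genes (37.5%), 0 of 14 mitochondrial genes and 1.76% of all genes, since YARS2 holds it farther upstream. Of the other members' values, divergent calls without shared promoters were 10 of 13 cytosolic (76.9%) and 6 of 10 mitochondrial genes (60%), and members with 2 or more own-strand calls numbered 4 of 34 (11.8%) with calls within 500 bp merged, against 20.6% of all called genes. Outer ends of the listed strand and listed starts only were chosen after seeing the data. The unknown depth limits what a missing call shows: it is not evidence that a start is unused. No paired analysis was possible because the lists have no column per library; for the same reason no replicate could be left out.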
